A study of Drosophila melanogaster with 12 samples.

Results

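The 92 transcripts described here were lowered little or not at all 3 days after cohesin knockdown in Drosophila BG3 cells. At day 6 they were at least 2-fold lower in the mean of both knockdowns. They were chosen from the measured values themselves. With log2 expression values under 4 set to 4, the day ratio of a probe set was the mean of its Rad21 minus mock and Nipped-B minus mock differences, and a transcript was taken if that ratio was above -0.4 at day 3 and -1 or less at day 6. This took 92 of 18769 probe sets, 38.3% of the 240 that met the day 6 limit. Another 148 were already at or below -0.4 at day 3. Of the 92, 85 probe sets name 1 gene, 1 names several and 6 name none, and the 85 stand for 82 genes because CG30022, mamo and Cyp12e1 each have 2 probe sets. The values of days 3 and 6 that chose the transcripts are given below as a description, with no test.

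RNA came from ML-DmBG3 cells, a cultured line derived from the larval central nervous system, treated with RNAi against Rad21, with RNAi against Nipped-B or with mock RNAi, on 4 Affymetrix Drosophila Genome 2.0 arrays for each. Every treatment had 2 arrays at day 3 (replicates 1 and 2) and 1 array each at day 4 (replicate 3) and at day 6 (replicate 4). Knockdown cells received 40 µg of dsRNA for the day 3 harvests and 10 µg for days 4 and 6, as an equal mix of dsRNA pairs against each target, and mock cells received 0 µg, so no array carries a control dsRNA. In knockdown cells, differences between day 3 and later days cannot be told apart from differences in dsRNA dose. Mock cells had 0 µg at every harvest. Days 4 and 6 have 1 array per treatment, so differences between days cannot be told apart from differences between single arrays.

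Cohesin is a ring of proteins that holds sister chromatids together. Rad21 is the subunit that closes the ring, and Nipped-B helps load the ring onto chromosomes. Both proteins also influence the transcription of many genes, in cells that divide and in cells that no longer do. The members are a mixed set of enzymes, transporters, mitochondrial proteins, stress factors and regulators.

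All 12 arrays had a like range, with 7199 to 7261 probe sets at log2 4 or above. Normalization across the arrays makes such counts alike, so they do not measure array quality. At day 3 the log2 difference between replicates 1 and 2 had an SD over the 7350 probe sets tested of 0.18 for Rad21, 0.22 for Nipped-B and 0.25 for mock arrays. The Nipped-B probe set read log2 2.27 to 2.29 on every array, as absent transcripts do, so it does not measure the knockdown, and Rad21 was not analysed here. The neuronal marker elav was detected at log2 7.79 to 9.43 and the glial markers moody and nrv2 at 11.70 to 13.11, whereas nSyb, brp and Syn of neurons and dpn, ase, wor and pros of neuroblasts stood at log2 2.18 to 2.55. The neuroblast marker mira was at 3.65 to 5.38, glial repo at 4.15 to 5.23 and glial Gs2 under log2 4. Glial wrapper differed by treatment at every harvest, at 2.56 to 3.04 on the 8 knockdown arrays and 4.29 to 5.17 on the 4 mock arrays, and its part in the results was not tested. Of the haemocyte markers, srp and Pxn were detected and Hml, He and NimC1 were at background. In a bulk culture, fewer cells of a kind and less RNA per cell cannot be told apart.

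The values at day 6, which chose the transcripts, spanned a mean log2 ratio of -3.39 for HP6 to -1.01 for Flad1, with a median of -1.43, and 3.21% of all probe sets tested were at or below -1. At day 3 the same transcripts had a median of -0.02, between -0.39 for puml and 0.97 for CG34253. In the mean of both knockdowns 47 of them were below mock cells at day 3 and 28 above. Nearest to the day 6 limit were sage, Rpt3R and Flad1 inside it, each at -1.01, and CG33494 at -0.998 with probe sets 1626303_s_at and 1636305_a_at at -0.98 outside it. Nearest to the day 3 limit were puml at -0.39, mamo at -0.38 and CG9410 at -0.37 inside, and rols at -0.42, CG14036 at -0.42 and NTPase at -0.41 outside.

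For most of the transcripts the level changed less between days 3 and 6 in either knockdown than in mock cells. After Rad21 RNAi the change to day 6 had a median of 0.00 on the log2 scale, with 6 of the 92 at least 2-fold higher (1.86% of all probe sets tested) and 6 lower (1.31% of all). After Nipped-B RNAi the median was also 0.00, with 8 higher (2.16% of all) and 9 lower (1.46% of all). In mock cells 70 of the 92 were at least 2-fold higher at day 6 than at day 3 (3.21% of all) and none was 2-fold lower (3.59% of all), with a median change of 1.41 (range -0.21 to 4.23). The rule used these arrays, so a high mock value at day 6 or a low one at day 3 helped to choose a transcript, and nothing is read from these shares against their background. The 62 transcripts at log2 4 or above on all 12 arrays had a median change of 0.14 in the mean of both knockdowns and of 1.31 in mock cells.

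The arrays of day 4 did not choose the transcripts, although the day 3 arrays they are set against did. After Rad21 RNAi the median change to day 4 was 0.00, with 2 transcripts at least 2-fold higher (1.06% of all) and 7 lower (2.12% of all). After Nipped-B RNAi it was 0.27, with 14 higher (1.67% of all) and 7 lower (3.77% of all). In mock cells it was 0.86, with 38 higher (1.84% of all) and 2 lower (4.22% of all), and 75 of the 92 stood above the day 3 mean. Over all probe sets tested the median mock change to day 4 was -0.01.

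**Figure D1:**
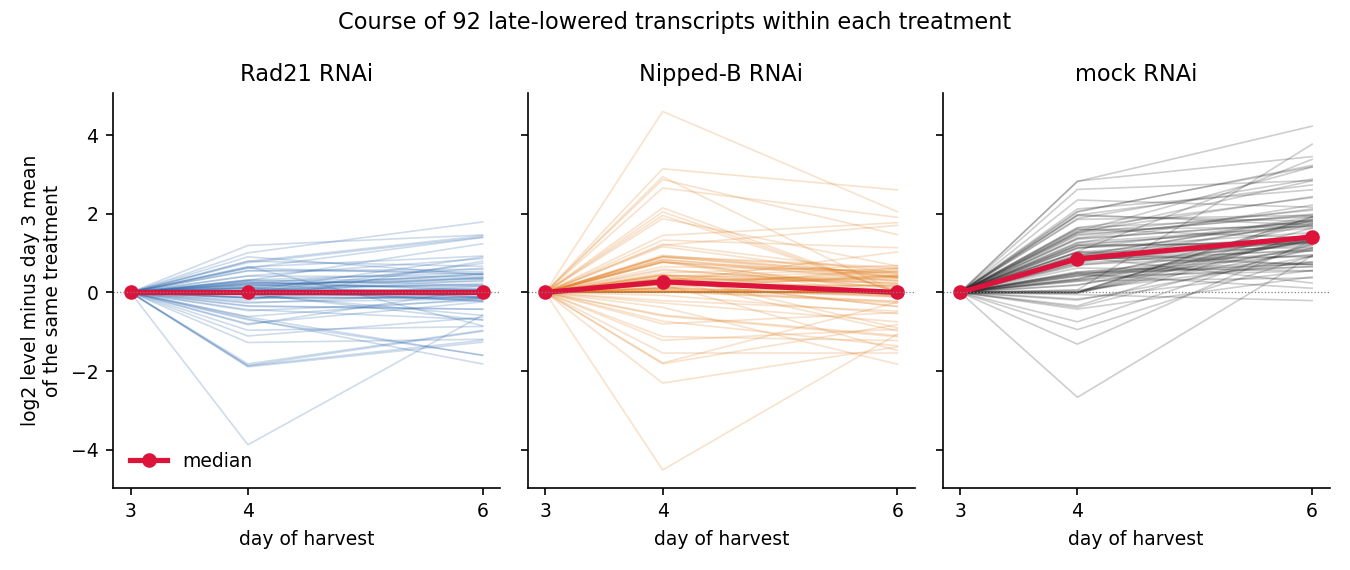
Change in log2 level of each of the 92 transcripts (thin lines) from the day 3 mean of the same treatment, at days 3, 4 and 6 after Rad21, Nipped-B and mock RNAi, with values under log2 4 set to 4 and the median as a thick line. The medians at day 6 are 0.00 in both knockdowns and 1.41 in mock cells.

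By its course, each transcript fell into 1 of 5 classes, using 2-fold changes to day 6 in the mean of both knockdowns and in mock cells. In 62 transcripts the knockdowns stayed within 2-fold and mock cells gained 2-fold or more. In 6, cu, pdm2, Pepck1, Hph, Nos and probe set 1638484_at, the mean of the knockdowns gained 2-fold or more, but less than mock cells did. Single knockdowns could differ from that mean, as Nos changed by 0.16 after Rad21 RNAi and by 1.91 after Nipped-B RNAi on the log2 scale. In 16 neither changed 2-fold, among them Cyp4e2, Las, RabX1 and both Cyp12e1 probe sets. The knockdowns lost 2-fold or more while mock cells stayed within 2-fold in 6, Orct, CG8501, tok, LKRSDH, CG34253 and probe set 1628884_at. In the last 2, CG32625 and NtR, the knockdowns lost and mock cells gained 2-fold or more. Any knockdown loss was smaller than the mock gain in 85 of the 92.

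Membership depended on the mock arrays. When each day's knockdown values were compared with the mean of all 4 mock arrays instead of the mock array of the same day, 35 probe sets met the limits, and 5 of the 92 were among them.

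Day 4 was the one harvest that the rule did not use, so it was tested. At day 4 the median log2 ratio of both knockdowns to mock was -0.72 for the 92 transcripts and 0.04 for all tested, and 26 of the 92 were at least 2-fold lower (2.87% of all tested) and 2 at least 2-fold higher (2.59% of all). In a limma fit across all 7350 probe sets tested, 60 of the 88 members tested were lower at an adjusted p of 0.1 or less (20.8% of all probe sets tested were), 2 were higher (23.6% of all) and 26 did not pass. The 2 higher, stv and probe set 1638484_at, were high on the Nipped-B array. Only that array and the day 6 mock array brought stv into the test, so that it had to differ. Against mock the Rad21 array alone gave 0.69 for 1638484_at (adjusted p = 0.198), and stv was under log2 4 on the Rad21 and mock arrays of day 4. The spread in this fit comes only from the pairs of day 3 arrays, and the single arrays of days 4 and 6 are assumed to vary like them. Of the 88, ChLD3, FeCH, HP6, Tret1-2, peg and 1 mamo probe set were tested only because mock arrays reached log2 4, so that they had to differ, and 5 of these 6 were among the 60. The 4 members not tested were a mamo probe set, Aldh7A1, CG5167 and CG10163, which reached log2 4 on the day 6 mock array alone. Of the 62 members at log2 4 or above on every array, 45 passed as lower, and their median ratio was -0.75.

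Each knockdown was also set against the day 4 mock array on its own. After Rad21 RNAi the median ratio was -0.88, and 63 members were lower (20.3% of all tested) and 0 higher (20.9% of all) at the same adjusted p in limma, 0 being higher at an unadjusted p under 0.05 as well. By fold alone, 35 were at least 2-fold lower (3.28% of all). After Nipped-B RNAi the median ratio was -0.53, with 46 members lower (16.3% of all) and 6 higher (19.6% of all), and 22 were at least 2-fold lower (3.10% of all) and 3 at least 2-fold higher (2.33% of all). The comparisons share the mock array. Some of the 63, such as CG9815, CG13248, CG12520 and probe set 1626597_at, were under log2 4 on every Rad21 array. For these the mock arrays were enough to bring them into the test, so that they had to differ.

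The day 4 ratio was a median 0.52 of the day 6 ratio, and in 49 of the 92 it was at least 0.5 of it. For 7 members with a day 4 ratio as large as or larger than that of day 6, namely ChLD3, AgmNAT, FeCH, sprt, Dtd, Ant2 and Flad1, the whole difference was present by day 4. For others no difference was seen by then, though values under log2 4 cannot show one. Both mamo probe sets, CG11000, CG15347, Aldh7A1, CG5167 and CG10163 were under log2 4 on all 3 arrays of day 4, and olf186-M differed by -0.04 (adjusted p = 0.928).

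**Figure D2:**
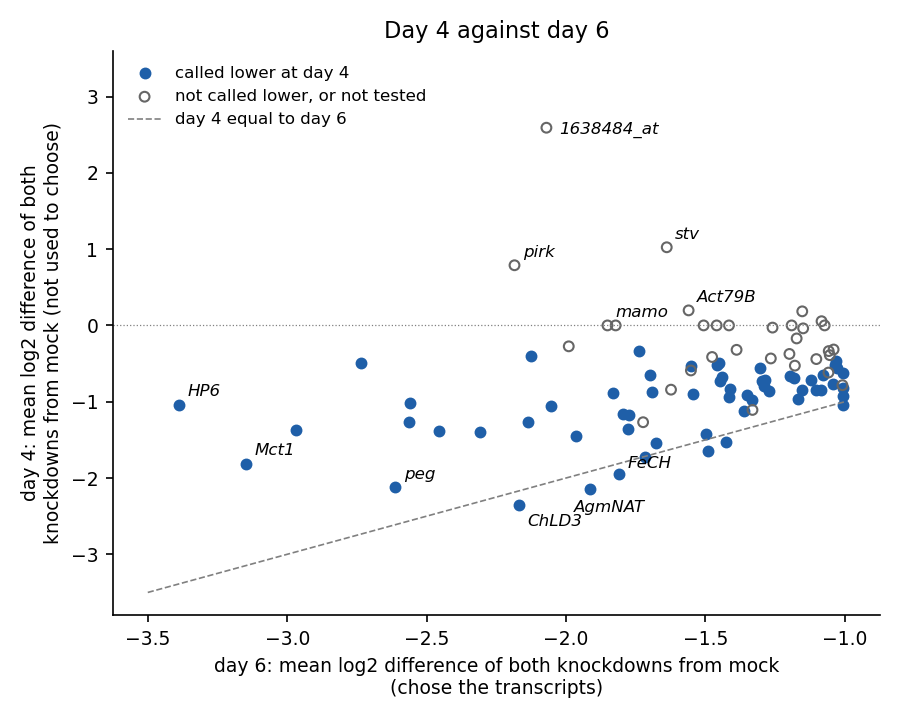
Mean log2 difference of both knockdowns from mock at day 4 (vertical axis, not used to choose the transcripts) against day 6 (horizontal axis, used to choose them) for the 92 transcripts, with values under log2 4 set to 4. Filled points are the 60 called lower at day 4, most of them between 0 and the dashed line of equal ratios, and ChLD3, AgmNAT, FeCH, sprt, Dtd, Ant2 and Flad1 lie on or below that line.

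The members are taken below by what their products do. This grouping was made with the members known and is not tested. Counts of listed genes lower or higher at day 4 are for both knockdowns together. They stand beside 20.8% lower and 23.6% higher among all probe sets tested, and no list was tested as a set.

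Several of the named members are metabolic enzymes. P5cr-2, a pyrroline-5-carboxylate reductase of proline synthesis, had log2 levels of 4.49 and 4.74 at day 3, 4.65 at day 4 and 4.60 at day 6 after Rad21 RNAi, of 4.91 and 4.68, 4.85 and 4.76 after Nipped-B RNAi, and of 4.51 and 3.92, 6.13 and 7.14 after mock RNAi. Both knockdowns stayed near their day 3 level while mock cells climbed, and at day 4 both knockdown values were under the mock value. At day 4 it was 2.61-fold lower in the knockdowns (log2 ratio -1.38 ± 0.28 SE, adjusted p = 0.0134). AgmNAT, which acetylates agmatine, was under log2 4 on all 4 knockdown arrays of day 3 and at 4.15 to 4.21 on those of days 4 and 6, against 4.29 and 4.43 at day 3, 6.34 at day 4 and 6.07 at day 6 in mock cells. Its day 4 ratio was -2.14 ± 0.17 (SE, adjusted p = 0.0012). LKRSDH, the enzyme that begins lysine breakdown, ran the other way in the knockdowns. It had levels of 5.30 and 5.52 at day 3, 4.98 at day 4 and 4.72 at day 6 after Rad21 RNAi, of 5.39 and 5.58, 4.75 and 4.12 after Nipped-B RNAi, and of 5.21 and 5.37, 5.75 and 6.25 after mock RNAi. The knockdown levels went down with time and the mock levels up, and at day 4 the ratio was -0.89 ± 0.18 (SE, adjusted p = 0.0127). Aldh7A1, an aldehyde dehydrogenase, was under log2 4 on every array but that of mock day 6, at 5.46. It is the only member among 27 genes listed for ATF4 and amino acid metabolism, of which 19 were tested at day 4, with 9 lower and 4 higher. Hph, the prolyl hydroxylase that marks the hypoxia factor for destruction, had a day 4 ratio of -0.85 ± 0.26 (SE, adjusted p = 0.0493), and agt, which repairs alkylated guanine in DNA, one of -0.65 ± 0.13 (SE, adjusted p = 0.0137). The ratio of -0.44 ± 0.27 for Ak1, an adenylate kinase, did not pass (SE, adjusted p = 0.254).

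Proteins of mitochondrial cofactors and carriers were also among the members. FeCH, or ferrochelatase, which inserts iron into heme, stayed at 3.57 to 3.85 on all 8 knockdown arrays, against 3.85 and 3.86 at day 3, 5.95 at day 4 and 5.81 at day 6 in mock cells. It was thus at least 3.87-fold lower at day 4 and at least 3.50-fold lower at day 6. FeCH entered the test through mock arrays alone, so no p-value is given. Ant2, an ADP/ATP carrier, was at 4.56 to 5.07 on the Rad21 arrays and 5.05 to 5.29 on the Nipped-B arrays, against 5.06 and 5.13 at day 3, 6.71 at day 4 and 6.48 at day 6 in mock cells, a day 4 ratio of -1.52 ± 0.15 (SE, adjusted p = 0.0018). Both transcripts showed their full difference at day 4, with knockdown levels flat and mock levels already up. Tpc1, a carrier of thiamine pyrophosphate, had a day 4 ratio of -0.98 ± 0.08 (SE, adjusted p = 0.0012) and Hsc20, a co-chaperone of iron-sulfur cluster assembly, one of -0.86 ± 0.12 (SE, adjusted p = 0.0049). Flad1, which makes FAD, was at -1.04 ± 0.13 (SE, adjusted p = 0.0029) and Las, or lipoic acid synthase, at -0.56 ± 0.09 (SE, adjusted p = 0.0067). All 4 were lower in both knockdowns taken singly. The Ant2 and Tpc1 probe sets carry the suffix _s_at, as 13 of the 92 do, and can match more than 1 transcript.

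Membrane transporters moved in different ways. Mct1, a monocarboxylate transporter, had levels of 5.01 and 4.82 at day 3, 4.79 at day 4 and 4.91 at day 6 after Rad21 RNAi, of 5.04 and 4.92, 5.10 and 5.59 after Nipped-B RNAi, and of 5.42 and 4.99, 6.76 and 8.40 after mock RNAi. The Rad21 levels scarcely moved and the Nipped-B level was 0.61 above its day 3 mean at day 6, while the mock level gained at each later harvest. The difference was 3.51-fold at day 4 (log2 ratio -1.81 ± 0.21 SE, adjusted p = 0.0027) and 8.86-fold at day 6. Orct, an organic cation transporter, had levels of 8.57 and 8.58 at day 3, 7.90 at day 4 and 6.75 at day 6 after Rad21 RNAi, of 8.37 and 8.53, 8.07 and 6.63 after Nipped-B RNAi, and of 8.09 and 7.99, 8.51 and 8.15 after mock RNAi. Here the knockdowns lost while mock levels held, and the knockdowns stood above mock cells at day 3 and below them at days 4 and 6. The day 4 ratio was -0.52 ± 0.11 (SE, adjusted p = 0.0157). Tret1-2, of the trehalose transporter family, stayed at or under 3.32 on all knockdown arrays, against 4.34 at day 4 and 5.74 at day 6 in mock cells, at least 3.34-fold at day 6. Orct and Tret1-2 are the members among 57 genes listed as solute carriers and transporters. Of the 26 tested at day 4, 10 were lower and 5 higher.

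**Figure D3:**
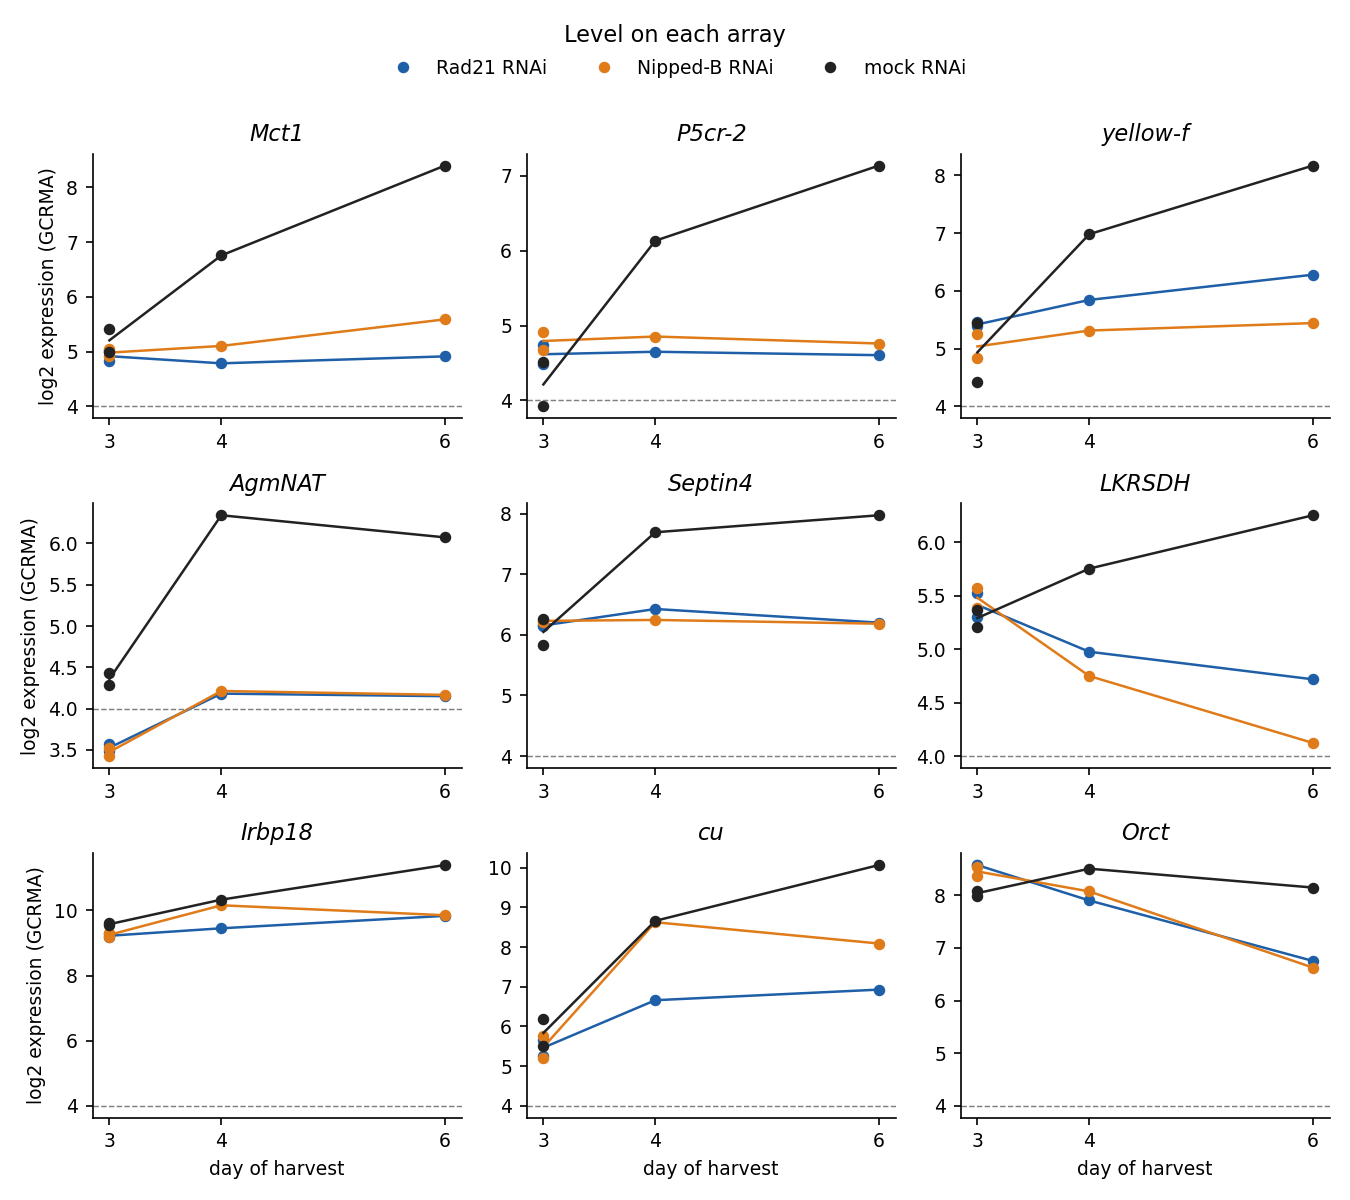
Log2 expression (GCRMA) on each array for 9 of the genes, by day of harvest after Rad21, Nipped-B and mock RNAi, with lines through the day 3 means and the single arrays of days 4 and 6; dashed lines mark log2 4 and vertical scales differ. For Mct1 and P5cr-2 the knockdown lines change little beside mock lines that climb to 8.40 and 7.14, the Nipped-B line of Mct1 rising to 5.59 at day 6. For Orct the knockdown lines drop to 6.75 and 6.63 under a flat mock line, and for cu Nipped-B follows mock at day 4.

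The cytochrome P450 enzymes Cyp12e1 and Cyp4e2 changed less than 2-fold from day 3 to day 6 in mock cells. To day 6, the 2 probe sets of Cyp12e1 changed by -0.02 and -0.14 on the log2 scale after Rad21 RNAi, by -0.75 and -1.13 after Nipped-B RNAi and by 0.72 and 0.55 after mock RNAi. They gave day 4 ratios of -0.93 ± 0.16 (SE, adjusted p = 0.0073) and -1.12 ± 0.15 (SE, adjusted p = 0.0037), and Cyp4e2 gave -0.85 ± 0.09 (SE, adjusted p = 0.0020). For Cyp4e2 the levels at days 4 and 6 were 9.14 and 9.07 in Rad21 cells, and 9.34 and 9.07 in Nipped-B cells, against 10.09 and 10.22 in mock cells, while at day 3 all 6 arrays lay between 9.49 and 9.75. At day 4 both knockdown arrays were below the mock array for either gene. Of the 14 genes tested among 85 listed cytochrome P450 genes, 6 were lower and 3 higher at day 4.

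Genes of pigment and cuticle were members too. The gene yellow-f, whose product acts on dopachrome in the melanin pathway, had levels of 5.38 and 5.45 at day 3, 5.84 at day 4 and 6.28 at day 6 after Rad21 RNAi, of 5.24 and 4.83, 5.31 and 5.44 after Nipped-B RNAi, and of 5.44 and 4.43, 6.98 and 8.17 after mock RNAi. The knockdowns were lower at day 4, and mock cells gained 9.40-fold by day 6 (day 4 log2 ratio -1.40 ± 0.41 SE, adjusted p = 0.0420). PPO3, a prophenoloxidase, had a day 4 ratio of -0.91 ± 0.24 (SE, adjusted p = 0.0309). ChLD3, of the chitin deacetylase family, was under log2 4 on all 8 knockdown arrays and on the day 3 mock arrays, and at 6.35 and 6.17 on the mock arrays of days 4 and 6. That made it at least 5.11-fold lower at day 4. With values under log2 4 set to 4, this was the lowest day 4 ratio among the members. Only mock arrays brought ChLD3 into the test, so no p-value is given.

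Of the cytoskeletal and matrix genes, Septin4, a filament-forming GTP-binding protein, had levels of 6.15 and 6.16 at day 3, 6.43 at day 4 and 6.20 at day 6 after Rad21 RNAi, of 6.24 and 6.22, 6.25 and 6.18 after Nipped-B RNAi, and of 6.26 and 5.83, 7.69 and 7.97 after mock RNAi. Its knockdown levels stayed between 6.15 and 6.43, whereas the mock level was 3.79-fold higher at day 6, and the day 4 ratio was -1.36 ± 0.19 (SE, adjusted p = 0.0043). The metalloprotease gene tok, a relative of tolloid, lost in both knockdowns, with 6.65 and 6.78 at day 3, 6.09 at day 4 and 5.11 at day 6 in Rad21 cells, and 6.76 and 7.06, 6.34 and 5.81 in Nipped-B cells, against 6.69 and 6.76, 7.63 and 6.96 in mock cells. Its day 4 ratio was -1.42 ± 0.16 (SE, adjusted p = 0.0024). For dpy, which encodes a giant matrix protein, the day 4 ratio of -0.34 did not pass (adjusted p = 0.175).

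Regulators of transcription and chromatin were few. HP6, a small relative of heterochromatin protein 1, had the lowest day 6 ratio. It was under log2 4 on all 8 knockdown arrays and both day 3 mock arrays, and at 5.04 and 7.39 on the late mock arrays. It was thus at least 2.05-fold lower at day 4 and at least 10.5-fold lower at day 6. No p-value is given, as mock arrays alone brought HP6 into the test. The POU domain factor pdm2 was under log2 4 on all 6 arrays of day 3 and then detected on all others, at 5.01 and 5.79 on days 4 and 6 in Rad21 cells, 5.45 and 5.77 in Nipped-B cells, and 6.06 and 7.20 in mock cells. It came on in every treatment, to a lower level in the knockdowns (day 4 ratio -0.84 ± 0.18 SE, adjusted p = 0.0170). It is 1 of 27 listed neuroblast genes, of which 8 were tested at day 4, with 1 lower and 4 higher. For mamo, a zinc finger factor first named for its part in making gametes, the 2 probe sets were under log2 4 on all knockdown arrays and on the day 4 mock array, and at 5.85 and 5.51 on the day 6 mock array. Smaller day 4 ratios were those of fuss, of the Ski and Sno family, at -0.66 ± 0.15 (SE, adjusted p = 0.0195), and of sage, a bHLH factor of salivary glands, at -0.63 ± 0.18 (SE, adjusted p = 0.0442). Neither moon, a TFIIA-like factor of the germline piRNA pathway, at -0.32 (adjusted p = 0.233), nor CREG at -0.62 (adjusted p = 0.1006) passed.

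Several of the lowest members have less familiar products. CG32625 was at 6.91 and 6.89 at day 3, 5.03 at day 4 and 5.68 at day 6 after Rad21 RNAi, at 6.89 and 6.69, 5.66 and 5.56 after Nipped-B RNAi, and at 7.02 and 7.11, 6.72 and 8.59 after mock RNAi. Its knockdown levels dropped at day 4 while the mock level did not rise until day 6, a day 4 ratio of -1.38 ± 0.13 (SE, adjusted p = 0.0017). NtR, of the ligand-gated ion channel family, took a like course, with a day 4 ratio of -1.27 ± 0.28 (SE, adjusted p = 0.0178). The secreted protein gene peg was under log2 4 on all knockdown arrays and at 6.12 and 6.61 on the late mock arrays. That is at least 4.36-fold lower at day 4, with no p-value given because only mock arrays brought peg into the test. The 2 probe sets of CG30022 gave day 4 ratios of -1.17 ± 0.15 (SE, adjusted p = 0.0038) and -1.18 ± 0.10 (SE, adjusted p = 0.0015). Their mock gains were 3.89-fold and 3.97-fold by day 6, a like course, but whether they share probes was not checked. The neighbouring gene sprt had a day 4 ratio of -1.73 ± 0.14 (SE, adjusted p = 0.0012), and Dtd, a D-aminoacyl-tRNA deacylase, one of -1.64 ± 0.34 (SE, adjusted p = 0.0146). Alg12, a mannosyltransferase of N-glycan assembly, was at -0.85 ± 0.14 (SE, adjusted p = 0.0069), Rpt3R, a relative of a proteasome ATPase subunit, at -0.93 ± 0.09 (SE, adjusted p = 0.0019), and RabX1, a Rab-type GTPase, at -0.77 ± 0.07 (SE, adjusted p = 0.0015).

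In 7 transcripts the level at day 4 was under the day 3 mean in every treatment. They were CG32625, NtR, CG8501, CG34253, lncRNA:mimi and probe sets 1624379_s_at and 1632224_at, and the last 3 had the largest mock dips, of -1.32, -2.67 and -0.95 on the log2 scale. The noncoding RNA lncRNA:mimi stood at 5.56 and 6.08 at day 3, 3.39 at day 4 and 4.85 at day 6 after Rad21 RNAi, at 5.54 and 6.09, 3.63 and 5.00 after Nipped-B RNAi, and at 5.49 and 5.69, 4.27 and 6.91 after mock RNAi. Probe set 1624379_s_at fell further, with 8.22 and 7.54, 3.98 and 7.30 after Rad21 RNAi, 8.88 and 8.16, 3.83 and 7.46 after Nipped-B RNAi, and 8.47 and 7.09, 5.11 and 8.71 after mock RNAi. Probe set 1632224_at was at 7.06, 6.51 and 7.31 on the Rad21, Nipped-B and mock arrays of day 4 and at 7.80 to 9.19 on all others. Day 4 ratios of these 3 did not pass, with adjusted p of 0.1034, 0.177 and 0.241.

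In several stress and signaling members the Nipped-B array of day 4 was high. The co-chaperone gene stv, a BAG family partner of Hsp70, was at 2.55 to 2.59 on the Rad21 arrays, at 2.62 and 2.57 at day 3, 6.05 at day 4 and 3.31 at day 6 on the Nipped-B arrays, and at 2.88 and 2.61, 2.67 and 5.64 on the mock arrays. It was thus raised on 1 Nipped-B array and on 1 mock array, of different days. At day 4 it was higher in Nipped-B cells than in mock cells, by a log2 ratio of at least 2.05 with the mock value set to 4. No p-value is given, as stv was tested only because this Nipped-B array and the day 6 mock array reached log2 4. The same array was high for pirk, an inhibitor of the IMD immune pathway, at 6.15, where the Rad21 array of day 4 read 3.52 and the mock array 4.29 (Nipped-B ratio 1.86 ± 0.46 SE, adjusted p = 0.0341). Probe set 1638484_at, with no gene name, was at 4.79 on the Rad21, 8.61 on the Nipped-B and 4.11 on the mock array of day 4, and at 5.44, 6.05 and 7.82 on those of day 6. Act79B, a muscle actin, Gadd45, a stress-response protein, and probe set 1626597_at are the other members higher after Nipped-B RNAi at day 4, by 0.78 ± 0.13, 0.59 ± 0.21 and 0.98 ± 0.20 on the log2 scale (SE, adjusted p = 0.0119, 0.0904 and 0.0189). None of these 6 passed as higher after Rad21 RNAi. There probe set 1626597_at, at 3.12 against 5.97 in mock cells, was at least 3.92-fold lower. No p-value is given for it, as no Rad21 array reached log2 4. Act79B had a log2 ratio of -0.39 after Rad21 RNAi (adjusted p = 0.0726).

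Heat shock genes did not all move the same way on the day 4 arrays. Hsp68 was at 8.36 on the Rad21, 9.64 on the Nipped-B and 7.88 on the mock array of day 4. Hsp26 was at 12.77, 13.89 and 12.94, and both were highest after Nipped-B RNAi. So were Hsp27, at 13.78, 14.18 and 13.38, and Hsf, at 11.52, 11.91 and 11.75. DnaJ-1 and stv were also highest on the Nipped-B array. Hsp60A, at 12.60, 12.69 and 13.59, and Hsc70-5, at 12.79, 12.71 and 13.51, were highest in mock cells. Highest on the Rad21 array were Hsc70-3, at 14.21, 14.05 and 13.90, and Hsc70-4, at 15.19, 15.13 and 15.11. Of 10 listed heat shock genes tested, stv included, 5 were higher and 2 lower at day 4 in both knockdowns together. Their part in the Nipped-B values was not tested. The lists that hold Act79B and pirk gave 2 of 5 muscle genes lower and none higher, and 0 of 12 immune genes lower and 4 higher, at day 4. Of all probe sets tested, 20.8% were lower and 23.6% higher. Irbp18, a bZIP partner of Xrp1 listed with 14 tested apoptosis genes (2 lower, 3 higher), had levels of 9.26 and 9.18 at day 3, 9.45 at day 4 and 9.83 at day 6 after Rad21 RNAi, of 9.31 and 9.20, 10.16 and 9.85 after Nipped-B RNAi, and of 9.60 and 9.56, 10.33 and 11.40 after mock RNAi. At day 4 Nipped-B cells stood with mock cells and Rad21 cells below both.

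The rule used the mean of the knockdowns and not their difference, which was tested over days 4 and 6 together. The day 6 arrays in this contrast did choose the members, so only the contrast at day 4 alone compares arrays that the rule did not use. In the limma fit 16 members were lower after Rad21 RNAi than after Nipped-B RNAi at an adjusted p of 0.1 or less (1.50% of all tested) and 0 were higher (1.28% of all), 4 being higher at an unadjusted p under 0.05. At day 4 alone 19 were lower (1.40% of all) and 0 higher (1.70% of all), 1 at an unadjusted p under 0.05. Both counts include stv, which would not have been tested without its high Nipped-B value at day 4. By fold, 11 were at least 2-fold lower after Rad21 RNAi at day 4 (0.830% of all) and 1, NtR, at least 2-fold higher (0.871% of all), and at day 6, 3 were lower, cu, Nos and Act79B (0.313% of all), and 1, prage, higher (0.422% of all). The median difference of all 92 was -0.28 at day 4 and -0.01 at day 6.

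Enzymes of carbohydrate metabolism and signaling were among the 16. Pepck1, which makes phosphoenolpyruvate for gluconeogenesis, had levels of 8.26 and 7.74 at day 3, 8.79 at day 4 and 9.45 at day 6 after Rad21 RNAi, of 8.82 and 8.67, 11.62 and 10.21 after Nipped-B RNAi, and of 8.55 and 8.31, 11.26 and 11.88 after mock RNAi. Nipped-B cells followed mock cells at day 4 and lay between mock and Rad21 cells at day 6, and the Rad21 minus Nipped-B difference was -1.79 ± 0.18 (SE, adjusted p = 0.0154). Nos, the nitric oxide synthase, was at 4.30 and 3.75, 4.02 and 4.30 after Rad21 RNAi, at 4.27 and 3.65, 6.79 and 6.05 after Nipped-B RNAi, and at 4.10 and 2.92, 6.67 and 6.90 after mock RNAi, with a difference of -2.26 ± 0.43 (SE, adjusted p = 0.0833). For cu, a relative of the deadenylase nocturnin, the levels were 5.66 and 5.27, 6.66 and 6.93 after Rad21 RNAi, 5.75 and 5.21, 8.63 and 8.09 after Nipped-B RNAi, and 6.18 and 5.50, 8.66 and 10.07 after mock RNAi. The same order held, Rad21 cells lowest at both late harvests and mock cells highest at day 6, and the difference was -1.56 ± 0.29 (SE, adjusted p = 0.0775). Act79B was at 9.61 and 8.10 on days 4 and 6 after Rad21 RNAi and at 10.78 and 9.57 after Nipped-B RNAi, a difference of -1.32 ± 0.09 (SE, adjusted p = 0.0052), and spir, an actin nucleator, was under log2 4 on the Rad21 array of day 4 and lower there by at least 1.71 on the log2 scale (adjusted p over both days 0.0555). Smaller differences were those of Pgm1, or phosphoglucomutase, at -0.61 ± 0.08 (SE, adjusted p = 0.0271), sni, a carbonyl reductase, at -0.57 ± 0.07 (SE, adjusted p = 0.0260), and Irbp18 at -0.36 ± 0.07 (SE, adjusted p = 0.0812).

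**Figure D4:**
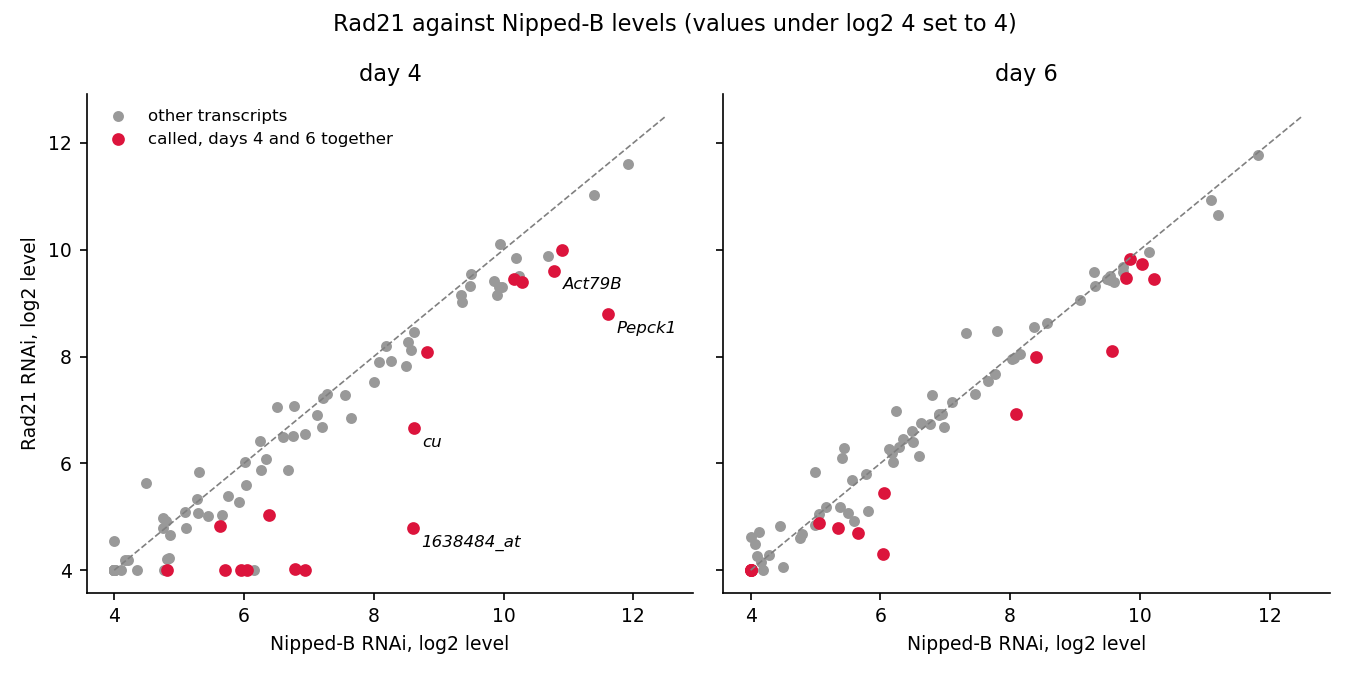
Log2 level after Rad21 RNAi (vertical axis) against Nipped-B RNAi (horizontal axis) for the 92 transcripts at day 4 and day 6, 1 array per axis, with values under log2 4 set to 4; the dashed line marks equal levels. The 16 transcripts called over both days (red) lie below the line at day 4, Pepck1 at 8.79 against 11.62, and all but Act79B lie closer to it at day 6.

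These calls rest on the day 4 arrays. Without the Rad21 array of day 4, or without the Nipped-B array of day 4, 1 member was called, Act79B, and without either Rad21 array of day 3, 7 were. With days 4 and 6 treated as replicates of 1 late group none was called, 19 members having an unadjusted p under 0.05 in that fit, and 5 probe sets of all tested were called. For most members no difference between the knockdowns was called: that of AgmNAT was -0.02 ± 0.14 and that of Orct -0.02 ± 0.09 (SE), and pirk, with Rad21 arrays under log2 4, missed the threshold (adjusted p = 0.1032).

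Set beside the 148 transcripts that were lowered at day 6 and already at day 3, the 92 had median ratios of -0.02, -0.72 and -1.43 at days 3, 4 and 6, against -0.71, -1.23 and -1.44 in the 148. In mock cells the change to day 6 had a median of 1.41 in the 92, with 70 of them 2-fold higher, against 0.67 in the 148, with 51. The day 3 limit set these groups apart, so no test was made.

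The 82 genes were spread over the genome. By the RefSeq annotation of Drosophila Release 6, 12 lie on X, 10 on 2L, 19 on 2R, 17 on 3L, 23 on 3R and 1, fuss, on 4, which is 14.6%, 12.2%, 23.2%, 20.7%, 28.0% and 1.22% of them, against 17.3%, 17.9%, 20.3%, 19.3%, 24.3% and 0.624% of all genes tested. Next to each other in gene order are dpy and HP6, sprt and CG30022, and Rpt3R and Alg12. Of 32 gene lists, 8 held a member and 24 held none. Among the 24 were those for ribosome biogenesis, where 31 of 33 tested genes were lower at day 4, mitochondrial ribosomal proteins, with 51 of 69 lower, and aminoacyl-tRNA synthetases, with 24 of 30 lower, so these changes lay outside the 92.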

How the data were processed

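The 12 arrays were deposited as log2 expression values that the authors computed from probe intensities with GCRMA (version not stated). The method corrects background from probe sequence and normalizes across arrays, so absent transcripts sit near log2 2 and differences among low values carry no order. The 183 control probe sets were left out. Values under log2 4 were set to 4 for the rule, for fold changes and for changes between days, and a fold against a knockdown value under 4 is a lower bound written "at least". Groups came from the sample labels, and repeats are those the labels call biological. Gene names came from the platform annotation, with 13647 probe sets naming 1 gene, 402 several and 4720 none.

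For the tests, 7350 probe sets at log2 4 or above on at least 2 of 12 arrays were fitted with limma 3.58.1 in R 4.3.3 (9 means of 3 treatments by 3 days, eBayes with a trend) on the deposited values without the floor. Adjusted p is Benjamini-Hochberg over all 7350, and 0.1 or less was called, the study's threshold. The residual spread comes from the day 3 pairs alone. On simulated data with this design, changes were put into a part of 7350 probe sets. At day 4, 86% of the log2 changes of 1 and 97% of those of 2 were recovered. Every simulated array was given the spread of the day 3 pairs, so the simulation does not test that assumption for single arrays. The number of arrays limits the precision. Day 4 was kept apart from day 6, which chose the transcripts.

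The members, gene lists and tests were chosen with earlier results of these data known. Named genes were the 12 lowest members at day 6, the 10 lowest and 5 highest at day 4, the 5 largest differences between knockdowns each way, the 3 nearest each limit on either side and all list members, with others where their role is well known. Unnamed probe sets and further genes were named after their values were seen. Alternatives were other floors, filters, a mean of all mock arrays, centring, a replicate block, and each array left out.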

Additional observations from a re-analysis of the deposited data

Results flagged for a closer look

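A difference between the knockdowns drew attention in 16 transcripts, all lower after Rad21 RNAi than after Nipped-B RNAi over days 4 and 6 (limma, adjusted p of 0.1 or less). Of those with both knockdowns at log2 4 or above at days 4 and 6, Nos differed by -2.26, probe set 1638484_at by -2.21, Pepck1 by -1.79, cu by -1.56, Act79B by -1.32, CG16888 by -1.16, probe set 1641723_a_at by -0.68, Pgm1 by -0.61, puml by -0.60, sni by -0.57 and Irbp18 by -0.36 on the log2 scale. The other 5 had Rad21 arrays under log2 4, where values carry no order, so their fitted differences of -2.29 for probe set 1626597_at, -2.18 for CG9815, -2.12 for stv, -1.16 for spir and -0.91 for CG13248 are not sizes. With values under 4 set to 4, their differences at day 4 were -2.94, -1.96, -2.05, -1.71 and -0.81, as bounds, and at day 6 they were 0 in all but spir, at -0.18.

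CG9815 was at 2.51 and 2.57 on days 4 and 6 after Rad21 RNAi, at 5.96 and 3.48 after Nipped-B RNAi and at 5.38 and 6.12 after mock RNAi, so its difference, like that of stv and of probe set 1626597_at, lies in 1 Nipped-B array. Nos, cu, CG16888 and Act79B were lower after Rad21 RNAi at both harvests, CG16888 with 5.03 and 4.70 after Rad21 RNAi and 6.38 and 5.65 after Nipped-B RNAi.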

How the results depend on the processing

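With each day compared with the mean of all 4 mock arrays, 35 probe sets met the limits in place of 92. Other floors, centring and single knockdowns gave 66 to 107, and leaving out 1 day 3 array gave 84 to 112. Counts of members lower at day 4 stayed within 1.5 times in every alternative run, 46 to 65 for both knockdowns when 1 array was left out. The median day 4 ratio of -0.72 was -0.83 with no floor, -0.48 against the mean of all mock arrays, -0.53 without Rad21 replicate 3 and -0.88 without Nipped-B replicate 3, the last pair chosen after seeing the data. Leaving out mock replicate 3 gives no day 4 comparison.

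The 16 differences between knockdowns became 10 at an adjusted p of 0.05 and 0 with 6 means, and ranged over 1 to 19 with 1 array left out, 7 without either day 3 Rad21 array and 1 without the Rad21 or the Nipped-B array of day 4. With a replicate block for the day 3 numbers they were 33, and the counts lower at day 4 were 71 for both knockdowns, 75 for Rad21 and 57 for Nipped-B. The shares of all probe sets called with the block are not given here, so these higher counts are not read as a result about the members. The labels do not say that a number marks a shared batch. Deviations of the day 3 replicates correlated at 0.36 to 0.50 across probe sets between treatments, over only 2 numbers, and numbers 3 and 4 mark days already in the fit. The cause was not tested.

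The day 4 direction depended on which knockdown array was kept: without Rad21 replicate 3 and without Nipped-B replicate 3 the ratio was 1.86 and -0.77 for pirk, 0.59 and -0.22 for Gadd45, 0.78 and -0.39 for Act79B, 3.38 and -0.11 for stv, 0.58 and -2.87 for CG9815, 0.12 and -2.66 for Nos and 0.36 and -2.47 for Pepck1. Ratios against values under log2 4 are not sizes, and with those set to 4 they were 2.05 and 0 for stv, 0.58 and -1.38 for CG9815, and 1.86 and -0.29 for pirk. Of the named genes' other results, 547 kept their call, 19 gained one and 10 lost one. Low signal limits the 11 members under log2 4 on all late knockdown arrays to bounds.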
